A study of Homo sapiens with 6 samples.

Results

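The 10 genes described here encode amino acid carriers of the plasma membrane. They are SLC7A5, SLC7A11, SLC3A2, SLC43A1, SLC7A1, SLC38A1, SLC38A2, SLC1A5, SLC1A4 and SLC6A9. They were found by gene symbol, and all 10 were present among the 35268 named genes of the normalized count matrix. Rh30, an established cell line of fusion-positive rhabdomyosarcoma (FP-RMS), was treated with 1 µM racemic YK-4-279, which was developed to block the partner binding of ETS fusion proteins, or with the vehicle, DMSO, for 24 hours. Polyadenylated RNA was sequenced from 3 libraries in each group, and both groups grew in RPMI with fetal bovine serum, non-essential amino acids and sodium pyruvate added. Nothing in the sources says whether the 3 libraries came from separate cultures, so p-values measure the spread between these libraries, which may be technical. A single cell line was sequenced, and YK-4-279 was given at a single dose and time.

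Cells cannot make the essential amino acids, and growing cells take up many others, glutamine above all, faster than they make them. The SLC7 light chains SLC7A5 (LAT1) and SLC7A11 (xCT) each pair with the glycoprotein heavy chain SLC3A2 (CD98hc or 4F2hc), which brings them to the cell surface. SLC7A5 exchanges large neutral amino acids such as leucine, and SLC7A11 exchanges cystine for glutamate and so feeds glutathione synthesis. Several of these genes are known targets of ATF4, the transcription factor of the amino acid response, and SLC7A11 is also a known target of the oxidative stress factor NRF2.

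The libraries held between 16724650 and 24677433 reads on named genes, and each carrier was covered by between 23 and 10721 reads in a library. The myogenic markers MYOD1, MYOG and DES, the fusion partners PAX3 and FOXO1, and FGFR4, a known target of PAX3-FOXO1, were all expressed, and the 10 markers of FP-RMS and muscle summed to between 100571 and 115055 normalized counts in DMSO and between 105541 and 110762 with YK-4-279. The blood markers summed to between 3.78 and 13.0 normalized counts in DMSO and between 16.0 and 23.1 with YK-4-279, mostly CD14, with CD68 at 0 throughout, and the epithelial markers summed to at most 90.0, nearly all of it EPCAM. Of the endothelial markers, which summed to between 221 and 318 normalized counts, TEK made up most, and PECAM1, CDH5, VWF and KDR were each at 30 or below. DMSO replicate 1 stood apart, with the smallest read total, a mean correlation across genes of 0.989 with the rest, which were at 0.992 or above, and 6.05% of reads on mitochondrial genes, against between 4.74% and 5.03% in the other 5 libraries.

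Start regions are shown for 4 of the carriers, because the later results turn on these genes and on the amino acid response. Each is the RefSeq window of 300 bases on GRCh38.p14, from 250 bases before to 50 bases after an annotated start, on the strand of the gene. SLC1A4 has 2 such windows and SLC3A2 has 3, and the window shown for each is the only 1 of them with a match to the motifs searched. Capitals mark matches to 4 motifs searched on both strands, namely the C/EBP-ATF element (TGATGNAA, or TTNCATCA on the other strand), the antioxidant response element (TGACNNNGC, or GCNNNGTCA), the E-box (CACGTG) and an ETS core (CCGGAAG, or CTTCCGG). The windows are those of SLC6A9 at chr1:44031413-44031712 on the minus strand, of SLC1A4 at chr2:64989149-64989448 on the plus strand, of SLC3A2 at chr11:62881449-62881748 on the plus strand, and of SLC7A5 at chr16:87869458-87869757 on the minus strand.
SLC6A9: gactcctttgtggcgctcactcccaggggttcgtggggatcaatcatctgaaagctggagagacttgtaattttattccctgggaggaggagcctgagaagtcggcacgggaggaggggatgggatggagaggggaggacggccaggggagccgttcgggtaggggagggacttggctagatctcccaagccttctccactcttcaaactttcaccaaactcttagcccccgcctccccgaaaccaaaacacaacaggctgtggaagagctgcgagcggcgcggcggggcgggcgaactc
SLC1A4: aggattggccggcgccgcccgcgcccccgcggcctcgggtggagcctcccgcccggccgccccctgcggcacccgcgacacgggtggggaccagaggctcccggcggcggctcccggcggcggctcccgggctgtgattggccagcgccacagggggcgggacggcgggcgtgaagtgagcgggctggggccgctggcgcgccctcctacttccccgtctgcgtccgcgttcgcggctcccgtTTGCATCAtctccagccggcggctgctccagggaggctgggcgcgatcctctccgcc
SLC3A2: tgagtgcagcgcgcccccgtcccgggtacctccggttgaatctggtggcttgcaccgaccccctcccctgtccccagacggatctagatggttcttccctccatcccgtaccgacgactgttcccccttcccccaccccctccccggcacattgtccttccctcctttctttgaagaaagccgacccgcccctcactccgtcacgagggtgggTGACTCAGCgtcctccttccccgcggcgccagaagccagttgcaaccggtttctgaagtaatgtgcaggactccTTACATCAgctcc
SLC7A5: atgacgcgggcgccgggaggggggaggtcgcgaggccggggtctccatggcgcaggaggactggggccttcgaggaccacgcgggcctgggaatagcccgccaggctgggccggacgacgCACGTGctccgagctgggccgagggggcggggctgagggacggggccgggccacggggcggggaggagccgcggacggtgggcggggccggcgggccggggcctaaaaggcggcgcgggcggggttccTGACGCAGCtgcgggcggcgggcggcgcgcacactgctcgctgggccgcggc

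Of the 10 genes, 9 had at least 1 such window, with 16 windows in all, and SLC7A11 had no entry. The C/EBP-ATF element matched in 5 of the 16 windows, those of SLC3A2, SLC7A1, SLC38A1, SLC1A5 and SLC1A4, against 3.62% of all 35116 windows. In the window of SLC1A4 shown above the match read TTGCATCA. The antioxidant response element matched in 4 windows, those of SLC7A5, SLC3A2, SLC7A1 and SLC1A5, against 13.3% of all windows, and the E-box in 3, those of SLC7A5, SLC1A5 and SLC43A1, against 7.26%. The ETS core matched in none of the 16, against 10.3% of all windows. In SLC6A9 none of the 4 motifs matched. A match is only a run of letters in this window, and binding of any factor was not measured in these libraries.

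The carriers lay at very different levels in Rh30 cells. On the scale of normalized counts per kilobase of the canonical GENCODE transcript, SLC7A5 was highest in DMSO, at 1849 ± 114 (SD, n = 3), followed by its heavy chain SLC3A2 at 1499 ± 124. The sodium-coupled neutral carriers SLC38A2 and SLC38A1, which take up glutamine, alanine and serine, stood at 1224 ± 62.6 and 1115 ± 52.3 per kilobase. Next came the cationic carrier SLC7A1 (CAT1), which takes up arginine and lysine, at 815 ± 15.7, and the glutamine exchanger SLC1A5 (ASCT2), at 700.2 ± 59.4. The remaining 4 were far lower. SLC43A1 (LAT3), a facilitated carrier of branched-chain amino acids, stood at 103 ± 1.72, the alanine, serine and cysteine carrier SLC1A4 (ASCT1) at 38.1 ± 3.27, SLC7A11 at 15.6 ± 0.292 and the glycine transporter SLC6A9 (GLYT1) at 13.1 ± 4.58. In this order only the neighbours SLC7A11 and SLC6A9 overlapped between libraries, and all other neighbours were separated in DMSO and in YK-4-279 alike. With YK-4-279 the order was the same down to SLC1A4, while SLC6A9 at 23.1 ± 1.83 and SLC7A11 at 20.3 ± 2.56 per kilobase changed places and still overlapped. Levels per kilobase assume that each gene is read mainly as its canonical transcript.

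YK-4-279 left the abundant carriers within narrow bounds of their DMSO level, while 3 of the 10 carriers, against 10.9% of all genes tested, had higher values in each treated library than in any DMSO library. By limma, 0 of the 10 carriers had an adjusted p under 0.05, against 3.41% of the 13930 genes tested (475 genes, of which 176, or 1.26%, were higher and 299, or 2.15%, lower). At an unadjusted p under 0.05 there were 2 of 10, SLC6A9 and SLC7A11, against 18.7% of all genes. On recovered reads, edgeR called 0 carriers and DESeq2 called 1, SLC6A9. Quantile normalization changed the split of calls over all genes to 132 higher and 145 lower. In bulk RNA of this kind, a different mix of cells and a different amount of RNA per cell cannot be told apart. Of the 10 carriers, 5 had log2 fold changes above 0 and 5 below, with a median of 0.011, against -0.0075 over all genes tested. That split turned on the scaling, with 9 above and 1 below under TMM scaling, in edgeR and in DESeq2 and 8 above and 2 below under quantile normalization.

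**Figure D1:**
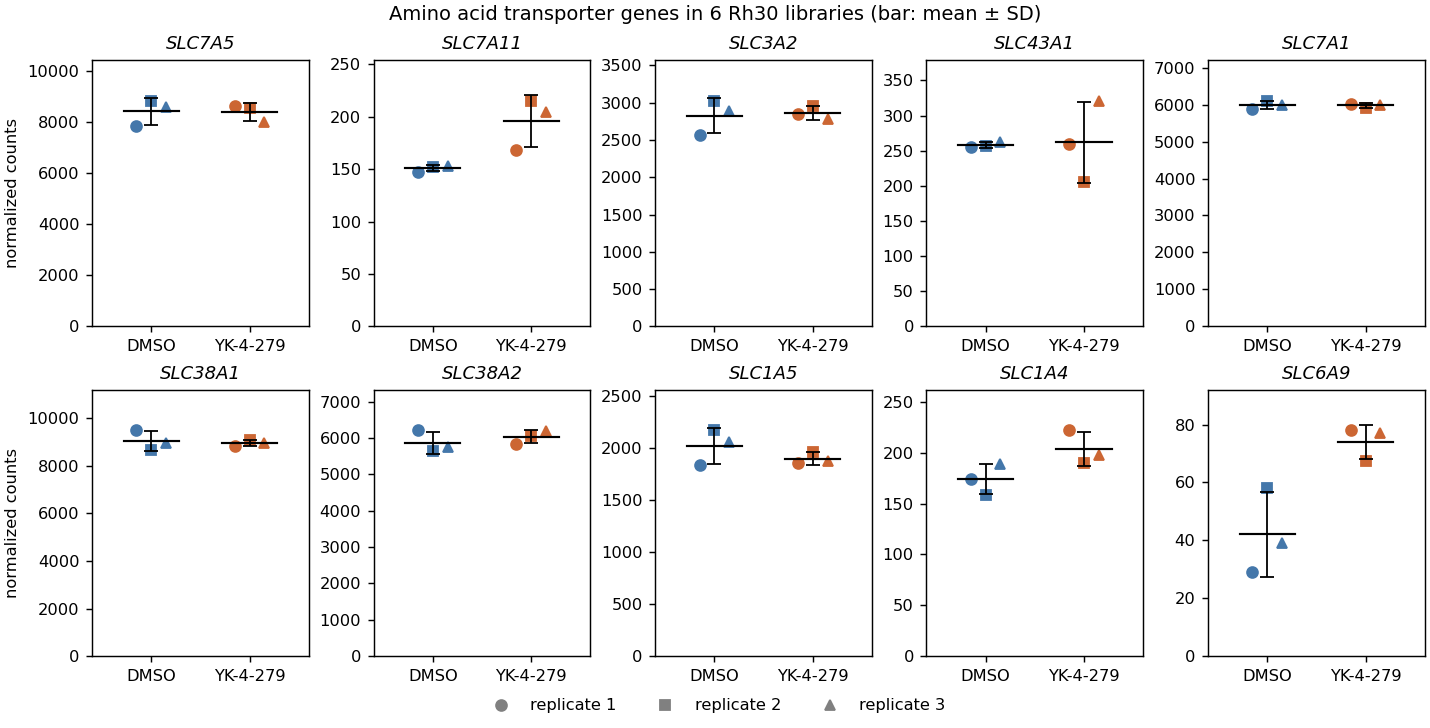
Normalized counts (vertical axes, each from 0) of the 10 amino acid transporter genes in the 3 DMSO and 3 YK-4-279 libraries, with marker shape giving the replicate number and black bars the mean ± SD of 3 libraries. SLC7A11, SLC1A4 and SLC6A9 have all 3 treated libraries above all 3 DMSO libraries, and in the other 7 genes the groups overlap.

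Of the members of the CD98 complexes, the heavy chain SLC3A2 lies on chromosome 11 from 62856004 to 62888880 (hg38, GENCODE, plus strand). It had 2570, 3026 and 2881 normalized counts in DMSO replicates 1, 2 and 3 and 2851, 2961 and 2780 in the treated replicates. The treated values fell within the DMSO range, and the log2 fold change from DMSO to YK-4-279 was 0.02 (SE of the fit 0.07, 95% confidence interval -0.12 to 0.17, limma adjusted p = 0.895). Its light chain SLC7A5, on chromosome 16 from 87830023 to 87869507, minus strand, had 7843, 8845 and 8583 normalized counts in DMSO and 8648, 8567 and 8014 with YK-4-279. The treated libraries of SLC7A5 again lay inside the DMSO range, with a log2 fold change of -0.0014 (SE 0.06, interval -0.13 to 0.13, limma adjusted p = 0.995). The pseudogene SLC7A5P1 was at 0 in all 6 libraries.

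SLC7A11, the cystine carrier on chromosome 4 from 138164097 to 138242349, minus strand, had 148, 152 and 153 normalized counts in DMSO replicates 1, 2 and 3 and 168, 215 and 204 with YK-4-279. Each treated library lay above each DMSO library, and the treated libraries were more widely spread, since treated replicate 1 was much nearer to DMSO than the other two. The group means were 151 ± 2.82 and 196 ± 24.7 (SD, n = 3 each), which differed in log2 by 0.37 (SE 0.12, interval 0.10 to 0.63, unadjusted p = 0.00994, limma adjusted p = 0.122). This did not pass the threshold, but after correction for GC content and length it did (0.44, limma adjusted p = 0.0245, against 0.0552 to 0.377 under the other alternatives). The antisense gene SLC7A11-AS1, which overlaps it, had at most 7.51 normalized counts in any library.

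Within a library, the log2 ratio of SLC7A5 to SLC3A2 was 1.58 ± 0.03 in DMSO and 1.55 ± 0.04 with YK-4-279, a difference of -0.024 that was smaller than the spread between libraries (exact permutation test, two-sided, p = 0.5). The log2 ratio of SLC7A11 to SLC3A2 was -4.22 ± 0.10 in DMSO and -3.87 ± 0.18 with YK-4-279, higher in 3 of 3 treated libraries than in any DMSO library, a difference of 0.34 (exact permutation test, two-sided, p = 0.1, Benjamini-Hochberg adjusted p = 0.2 over 2 ratios). With 3 libraries against 3, 0.1 is the smallest p that this test can give. By Pearson correlation of log2 values over the 6 libraries, the genes most like SLC7A11 were TYW5, DACT1 and TRIB3, at 0.989, 0.989 and 0.985, and those most like SLC3A2 were USP5, QDPR and TIMM17B, at 0.995, 0.995 and 0.994. These are the highest of 10698 genes compared over only 6 libraries that share their scaling, and are given as a description.

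SLC43A1, the other leucine carrier, on chromosome 11 from 57484534 to 57515780, minus strand, had 255, 257 and 263 normalized counts in DMSO and 260, 205 and 321 with YK-4-279. The treated libraries straddled the tight DMSO values. Its log2 fold change was -0.0021 (SE 0.14, interval -0.30 to 0.29, limma adjusted p = 0.997). Without treated replicate 2 it was 0.16, and without treated replicate 3 it was -0.16.

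SLC7A1, on chromosome 13 from 29509414 to 29595688, minus strand, had 5873, 6103 and 5984 normalized counts in DMSO replicates and 6021, 5910 and 5991 with YK-4-279. The groups overlapped fully, and the 95% interval of the log2 fold change, -0.12 to 0.11, corresponds to between 0.923-fold and 1.08-fold of the DMSO level. SLC38A1 (SNAT1), on chromosome 12 from 46183063 to 46270017, minus strand, had 9486, 8649 and 8951 normalized counts in DMSO and 8826, 9097 and 8958 with YK-4-279, a log2 fold change of -0.01 (SE 0.06, interval -0.13 to 0.11, limma adjusted p = 0.950). Its neighbour SLC38A2 (SNAT2), on chromosome 12 from 46358188 to 46372773, minus strand, had 6211, 5649 and 5747 in DMSO and 5840, 6059 and 6193 with YK-4-279, a log2 fold change of 0.04 (SE 0.06, interval -0.08 to 0.16, limma adjusted p = 0.754). In both SNAT genes DMSO replicate 1 was the highest of all 6 libraries. After correction of each library for GC content and transcript length, SLC38A2 passed the threshold at 0.14 (limma adjusted p = 0.0168, against 0.192 to 0.931 under the other alternatives). Its log2 fold change was 0.013 without DMSO replicate 2, 0.025 without DMSO replicate 3, 0.021 without treated replicate 3, 0.063 without treated replicate 1 and 0.082 without DMSO replicate 1.

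SLC1A5, on chromosome 19 from 46774883 to 46788594, minus strand, had 1831, 2166 and 2056 normalized counts in DMSO and 1850, 1962 and 1876 with YK-4-279. DMSO replicate 1 was the lowest of the 6 libraries, and the other DMSO libraries were above all treated ones. The log2 fold change was -0.09 (SE 0.07, interval -0.24 to 0.07, limma adjusted p = 0.545), and without DMSO replicate 1 it was -0.16 and passed the threshold (limma adjusted p = 0.0200, against 0.0676 to 0.832 under the other alternatives), while without DMSO replicate 2 it was -0.034.

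SLC1A4, its relative on chromosome 2 from 64988477 to 65023865, plus strand, had 174, 159 and 189 normalized counts in DMSO and 222, 190 and 198 with YK-4-279. The groups did not overlap, though only 1.47 normalized counts separated treated replicate 2 from DMSO replicate 3. The log2 fold change was 0.23 (SE 0.12, interval -0.02 to 0.48, limma adjusted p = 0.318). The log2 ratio of SLC1A4 to SLC1A5 within a library went from -3.53 ± 0.20 to -3.22 ± 0.15, a difference of 0.31, with 3 of 3 treated libraries above each DMSO library. It was 0.20 without DMSO replicate 2.

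SLC6A9, the glycine transporter, on chromosome 1 from 43991500 to 44031467, minus strand, had the largest log2 fold change of the 10. It had 29.0, 58.0 and 39.2 normalized counts in DMSO replicates 1, 2 and 3 and 78.0, 67.4 and 77.0 with YK-4-279. The treated libraries were all above the DMSO libraries, which were themselves widely spread. The means were 42.1 ± 14.7 and 74.1 ± 5.87 (SD, n = 3 each), which differed in log2 by 0.86 (SE 0.23, interval 0.36 to 1.35, limma adjusted p = 0.0614), which did not pass the threshold. It passed in DESeq2 (0.82, adjusted p = 0.0456), after correction for GC content and length (0.81, adjusted p = 0.0156), without DMSO replicate 1 (0.62, adjusted p = 0.0350) and without DMSO replicate 2 (1.11, adjusted p = 0.0114), and over all alternatives its adjusted p ranged from 0.0114 to 0.271. CCDC24, on the opposite strand, overlaps SLC6A9 and had 20.2, 25.0 and 24.2 normalized counts in DMSO and 19.7, 12.0 and 36.0 with YK-4-279, and whether counting used strand is not given in the sources used here.

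**Figure D2:**
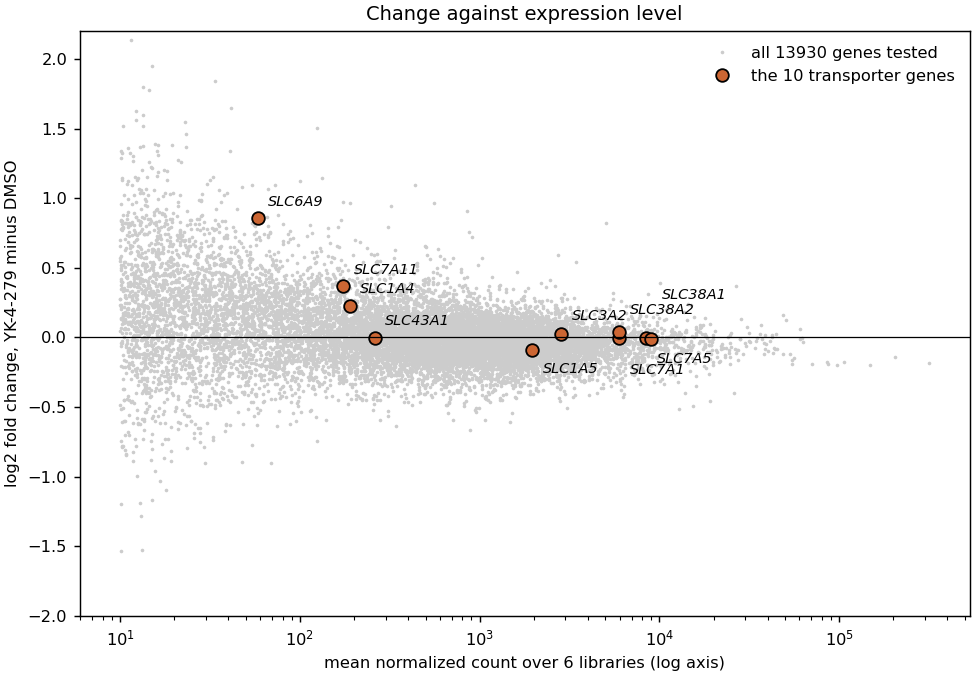
Log2 fold change (YK-4-279 minus DMSO, vertical axis) against mean normalized count over 6 libraries (horizontal log axis) for the 13930 genes tested (grey) and the 10 transporter genes (orange). The 6 carriers with a mean above 1000 lie between -0.09 and 0.04, and SLC6A9, SLC7A11 and SLC1A4 lie above 0 at lower means, where the grey points spread more widely.

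The 3 carriers whose treated libraries were all higher had few reads, and the change over all genes also moved with level. Among genes tested with a mean from 10 to 100 normalized counts, the range of SLC6A9, the median log2 fold change was 0.14, from 100 to 1000, the range of SLC7A11, SLC1A4 and SLC43A1, it was -0.0042, and at 1000 or more, the range of the other 6 carriers, it was -0.044. The groups did not overlap, with treated libraries higher, in 3 of the 10 carriers, against 10.9% of all genes tested, and in these 3 ranges the share was 14.6%, 12.2% and 6.77%. With treated libraries lower there was none of the 10, against 15.1% of all genes, and 25.6% of those at 1000 or more. Under quantile normalization, which brought the 3 medians to between -0.0085 and 0.0049, SLC6A9, SLC7A11 and SLC1A4 were at 0.73, 0.33 and 0.19. Summed over the 10 carriers, the libraries held 34419, 35065 and 34847 normalized counts in DMSO and 34763, 35236 and 34613 with YK-4-279, and the groups overlapped. In CPM over the named genes, the same sums were 1632, 1689 and 1691 in DMSO and 1746, 1729 and 1740 with YK-4-279, where the groups did not overlap, so that the comparison of the sum turns on the scaling of the libraries.

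Other amino acid transporter genes were read from a list of 41 by family, of which 20 were tested, 21 had a mean below 10 and 9 were at 0 in every library. Of the 20, 3 passed the threshold, 1 upward and 2 downward, against 3.41% of all genes tested (1.26% higher and 2.15% lower), and the median over the 20 was -0.0051 (log2). Both that fell encode cationic carriers of the family of SLC7A1. SLC7A2 (CAT2) had 3311, 2931 and 3002 normalized counts in DMSO and 2494, 2440 and 2485 with YK-4-279, a log2 fold change of -0.32 (SE 0.06, limma adjusted p = 0.0155). SLC7A3 (CAT3) had 475, 469 and 517 in DMSO and 365, 343 and 335 with YK-4-279, a log2 fold change of -0.48 (SE 0.09, limma adjusted p = 0.0105). Every treated library was below every DMSO library in both genes, while the groups of SLC7A1 overlapped. Set against SLC7A1 within each library, the log2 ratio of SLC7A2 went from -0.96 ± 0.12 to -1.27 ± 0.0037 and that of SLC7A3 from -3.62 ± 0.08 to -4.10 ± 0.06, lower in 3 of 3 treated libraries in each case.

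The transporter that rose was SLC43A2 (LAT4), a relative of SLC43A1, with 40.3, 58.0 and 53.4 normalized counts in DMSO and 74.5, 83.7 and 97.0 with YK-4-279. Its log2 fold change was 0.75 (SE 0.19, limma adjusted p = 0.0466), and its log2 ratio to SLC43A1 went from -2.35 ± 0.26 to -1.60 ± 0.27. The call of SLC43A2 was lost with TMM scaling, quantile normalization, no filter, a mean of at least 100 (where it was not tested), eBayes without trend, a replicate block and without DMSO replicate 3. The ratios other than those to SLC3A2 were chosen after the values were seen and are given as a description, with no test. SLC38A10, the transporter of the list with the highest mean, averaged 3992 ± 526 normalized counts in DMSO and 4069 ± 67.8 with YK-4-279, or 0.04 in log2 (limma adjusted p = 0.852). No gene of the list of 41, SLC7A2 and SLC7A3 included, was called without treated replicate 1, 2 or 3 or with eBayes without trend. Without DMSO replicate 1 there were 4, SLC1A3, a glutamate carrier, with the 3 above.

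**Figure D3:**
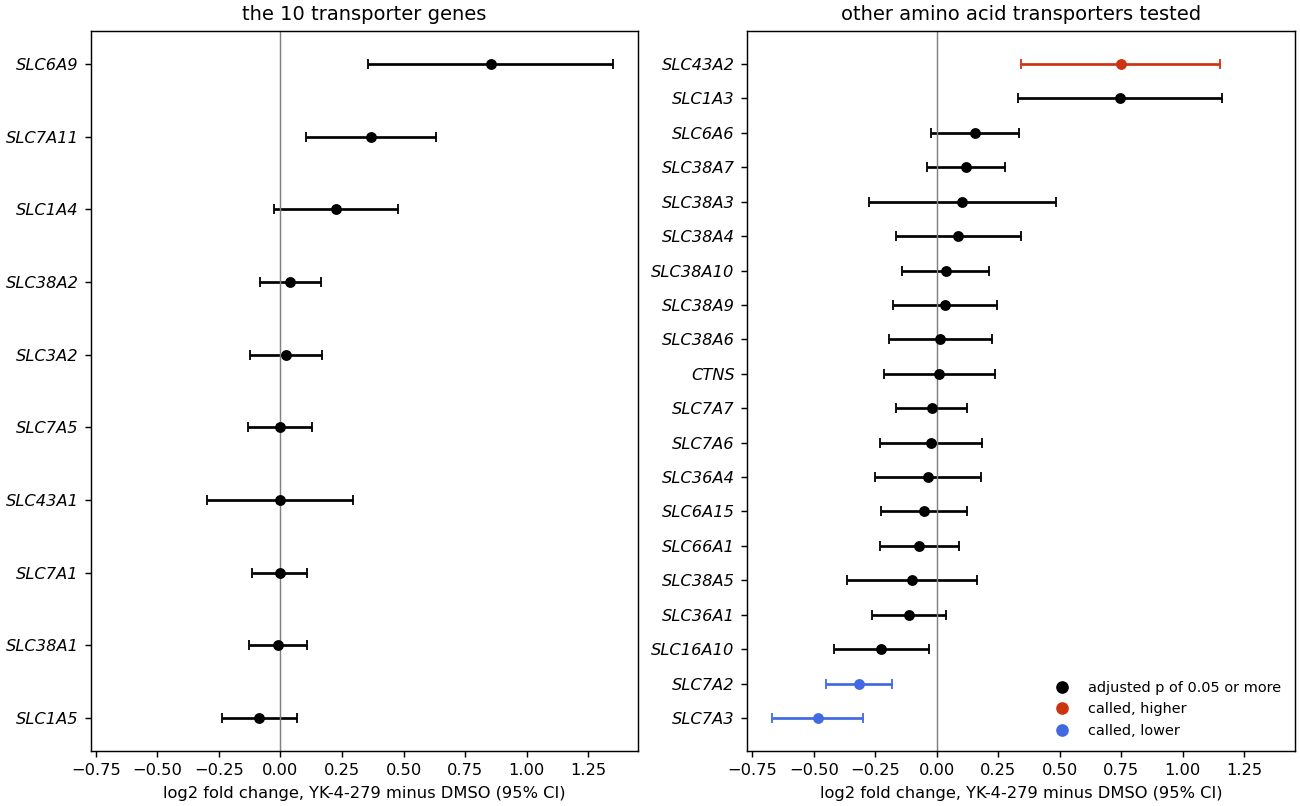
Log2 fold changes (YK-4-279 minus DMSO, horizontal axis) with 95% confidence intervals from limma for the 10 transporter genes (left) and for the 20 other amino acid transporter genes tested (right). On the left no gene is called, and on the right SLC7A2 and SLC7A3 are called lower and SLC43A2 higher.

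Genes of the amino acid response were read from a list of 41, of which 40 were tested. It is not only a list of ATF4 targets, since it holds ATF4 itself and the kinases EIF2AK3 and EIF2AK4. Of these, 6 passed the threshold, 5 higher and 1 lower, against 1.26% and 2.15% of all genes tested, and the median log2 fold change was 0.039, against -0.0075. The list shares several genes with the wider integrated stress response. ATF4 itself was at 0.07 in log2, with overlapping groups (limma adjusted p = 0.540). ASNS, with between 8 and 26 reads in a library, was at 0.19 (limma adjusted p = 0.824), and no tRNA synthetase gene of the list was called. PPP1R15A (GADD34), a phosphatase subunit that reverses phosphorylation of eIF2α, had 499, 613 and 608 normalized counts in DMSO and 804, 899 and 842 with YK-4-279, a log2 fold change of 0.57 (SE 0.09, limma adjusted p = 0.00705). The transcription factors CEBPB and ATF3 rose by 0.46 and 0.43 on the log2 scale (SE 0.09 and 0.07, limma adjusted p = 0.0152 and 0.00741). DDIT3, a stress-induced transcription factor, and SESN2, a leucine sensor, rose as well, by 0.34 and 0.35 (limma adjusted p = 0.0360 and 0.0410). Neither was called under quantile normalization, eBayes without trend, a replicate block or without DMSO replicate 3. CEBPB was not called without DMSO replicate 3, PSAT1 was not called with a replicate block, and with eBayes without trend none of the 6 was called. PSAT1, an enzyme of serine synthesis, fell, with a mean of 3340 ± 194 normalized counts in DMSO and 2702 ± 108 with YK-4-279 (limma adjusted p = 0.0196). SHMT2, the mitochondrial serine hydroxymethyltransferase and the most abundant of the list, was at -0.08 (log2) (limma adjusted p = 0.603), and without DMSO replicate 1 it was called, at -0.17 (limma adjusted p = 0.00544). TRIB3, which tracked SLC7A11 most closely among members of the list, had 435, 433 and 433 in DMSO and 470, 550 and 510 with YK-4-279 (limma adjusted p = 0.166), and without DMSO replicate 1 it was called, at 0.23 (limma adjusted p = 0.0396). No gene of this list was called without treated replicate 1, 2 or 3, against 10 without DMSO replicate 1, 7 higher and 3 lower.

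Of 17 genes tested of the oxidative stress and glutathione list, which holds partners of SLC7A11 in cystine use, 2 passed the threshold, both higher, against 1.26% of all genes tested, with a median of 0.018. Without DMSO replicate 1 the median was -0.029, and 5 were called, HMOX1 and OSGIN1 higher and GCLM, TXN and GPX4 lower. GCLM, a subunit of the enzyme that starts glutathione synthesis, had 470, 378 and 445 normalized counts in DMSO and 312, 342 and 340 with YK-4-279, or -0.37 in log2 (limma adjusted p = 0.0591), and it was also called in DESeq2, after correction for GC content and length and without DMSO replicate 2. HMOX1, which degrades heme, had 166, 246 and 232 normalized counts in DMSO and 320, 351 and 296 with YK-4-279, a log2 fold change of 0.60 (limma adjusted p = 0.0320), and OSGIN1, a stress-induced growth inhibitor, had one of 0.73 (limma adjusted p = 0.0325). In both genes DMSO replicate 1 was the lowest library. FTL, the ferritin light chain and the most abundant of this list, was at 0.04 (log2, limma adjusted p = 0.728). No gene of this list was called without treated replicate 1, 2 or 3, under quantile normalization or with eBayes without trend, and with a replicate block OSGIN1 was not called.

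Genes of a list of glutamine and glutamate metabolism were lower where they passed. Of 14 tested, 3 fell and 0 rose, against 2.15% and 1.26% of all genes tested. The median log2 fold change was -0.09, against -0.0075 over all genes and -0.044 over those with a mean of 1000 or more. GLUD1, glutamate dehydrogenase, averaged 2817 ± 114 normalized counts in DMSO and 2314 ± 73.7 with YK-4-279, or -0.28 in log2 (SE 0.06, limma adjusted p = 0.0224). GMPS and CTPS1, which use glutamine for GMP and CTP synthesis, changed by -0.28 and -0.23 (limma adjusted p = 0.0435 and 0.0409). CTPS1 was not called with TMM scaling, no filter or in edgeR, and none of the 3 was called with a replicate block or eBayes without trend. In the list of amino acid sensing by mTORC1, none of 23 genes tested was called in limma, with 3 at an unadjusted p under 0.05, against 18.7% of all genes tested, and MTOR, the most abundant, was at 0.01 (log2, limma adjusted p = 0.944). Without DMSO replicate 1, LAMTOR4, a Ragulator subunit, was called lower and TSC1, an inhibitor of mTORC1 signalling, higher, and 5 glutamine genes were called, all lower. Over both lists together, 0 genes were called without DMSO replicate 3, without any treated library or under quantile normalization.

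**Figure D4:**
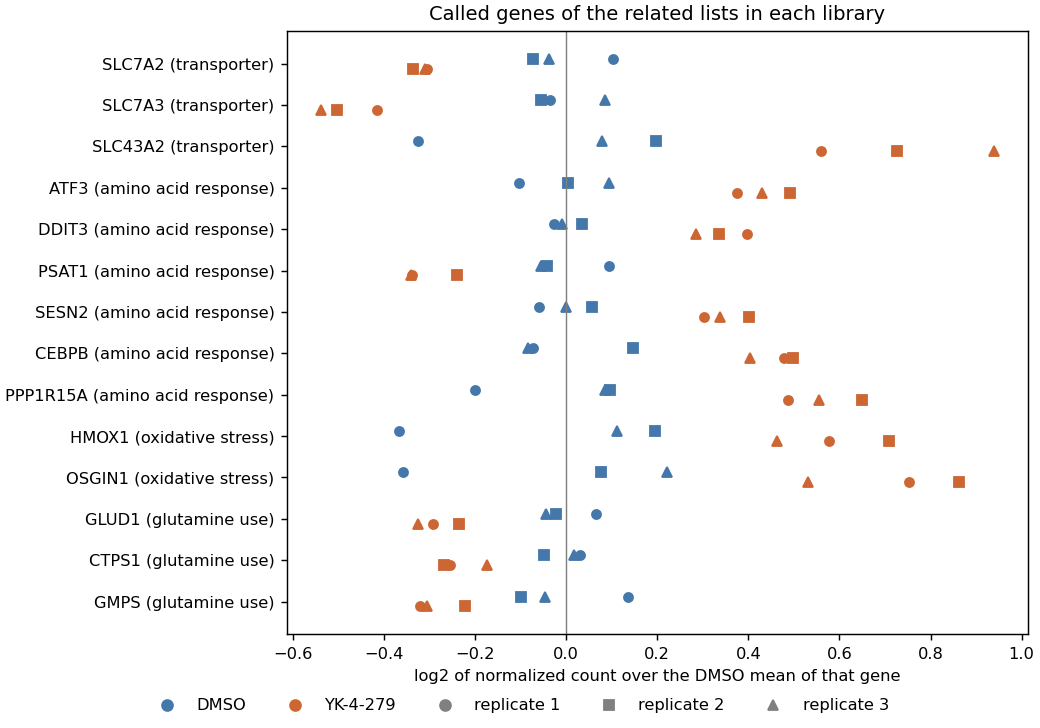
Called genes of the related lists in each library, as log2 of the normalized count over that gene's DMSO mean (horizontal axis), with colour giving the group and marker shape the replicate number. In each gene shown, all 3 treated libraries lie on the same side of all 3 DMSO libraries.

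The counts under other settings are to be read against how many of all genes each setting called. Against 3.41% with all libraries in limma, the share was 3.02% with TMM scaling, 1.99% with quantile normalization, 3.52% with a pseudocount of 10, 2.04% with no filter and 4.36% with a mean of at least 100. It was 0.237% with eBayes without trend, 1.29% with a replicate block, 3.34% in edgeR, 4.47% in DESeq2 and 11.9% after correction for GC content and length. Leaving out DMSO replicate 1, 2 or 3 gave 13.1%, 4.85% and 1.74%, and leaving out treated replicate 1, 2 or 3 gave 0.136%, 0.165% and 0.33%. The 4 settings in which a carrier passed, DESeq2, the correction for GC content and length, and leaving out DMSO replicate 1 or 2, were those with the 4 highest shares.

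**Figure D5:**
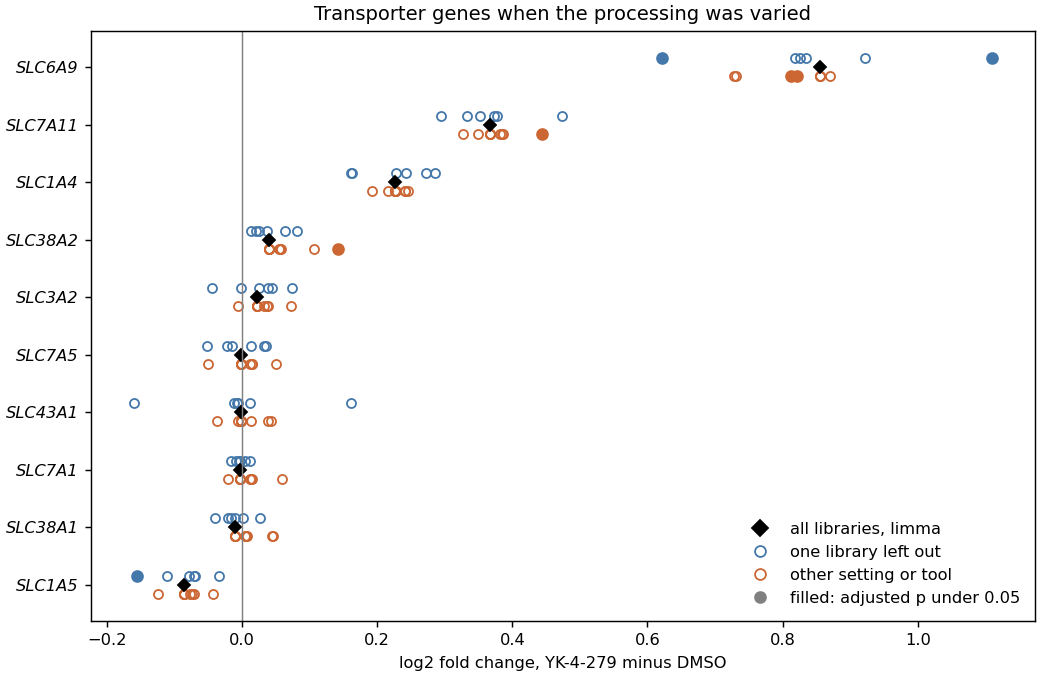
Log2 fold changes (YK-4-279 minus DMSO, horizontal axis) of the 10 transporter genes with all libraries in limma (diamonds), with 1 library left out (blue) and under other settings or tools (orange), filled where the adjusted p was under 0.05. SLC6A9 stays between 0.62 and 1.11 and SLC7A11 between 0.30 and 0.47, while SLC7A5, SLC3A2, SLC7A1, SLC38A1 and SLC43A1 lie on both sides of 0.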

How the data were processed

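The 6 libraries were prepared with a directional mRNA kit and sequenced in pairs of reads. Per the labels and methods, the authors used BBDuk for trimming, STAR 2.7.9a for alignment to hg38 and gene counts, and DESeq2 1.44.0. The annotation release is not given in the sources used here. What was deposited is a normalized signal, gene counts divided by a size factor of each library. Of 35269 rows, 1 had no gene name and was left out (at most 6 reads per library). Divided by the value of 1 read in its library, 100% of values came out whole (tolerance 0.01), and these reads, 16724650 to 24677433 per library, entered the count tests.

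The test was limma 3.58.1 in R 4.3.3 (eBayes with trend, two-sided). It was run on log2(normalized count + 1) of 13930 genes whose mean was 10 or more, with Benjamini-Hochberg adjustment over all of them and a threshold of 0.05. The added 1 shrinks the log2 change of low genes, but SLC6A9 was still higher here, at 0.86, than in edgeR and DESeq2, both at 0.82. The ratios to SLC3A2 within libraries were tested by exact permutation. The code was tested on simulated reads. Alternatives were TMM and quantile scaling, a pseudocount of 10, no filter or a mean of at least 100, eBayes without trend, a replicate block, edgeR 4.0.16, DESeq2 1.42.0, correction for GC content and length (98.4% of genes), and leaving out each library. Members and lists were chosen with earlier results of these data known. Named genes were all 10 carriers and, per list, the highest mean and the 3 largest called changes without overlap. ATF4, ASNS, DDIT3, SESN2, PSAT1, GCLM, TXN, GPX4, LAMTOR4, TSC1 and SLC1A3 were added after their values were seen. Some genes are not reported here. In the list of 25 sensing genes, 24 matched by symbol.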

Additional observations from a re-analysis of the deposited data

How the results depend on the processing

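The sources name no pairing by replicate number. Deviations from group means correlated at -0.098, -0.027 and -0.027 between libraries of the same number, which shows no sign of pairing but cannot exclude it. With a replicate block, 180 genes were called, 0 carriers, 2 other transporters, 3 amino acid response genes, 1 oxidative stress gene and 0 sensing and glutamine genes, against 475, 0, 3, 6, 2 and 3 without it. The block cannot move the differences of the ratios of SLC7A5 and SLC7A11 to SLC3A2 (-0.024 and 0.34), and their exact permutation p became 0.25 in both, the smallest that 3 pairs can give. Causes were not tested.

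Genes called over all genes numbered 277 with quantile normalization, 33 with eBayes without trend and 1632 after correction for GC content and length, and from 19 to 1823 with 1 library left out. Carriers called numbered 1 in DESeq2, 3 after correction for GC content and length (SLC7A11 at 0.44, SLC38A2 and SLC6A9) and from 0 to 2 with 1 library left out. The other lists, with 1 library left out, gave from 0 to 4 other transporters, 0 to 10 amino acid response genes, 0 to 5 oxidative stress genes and 0 to 7 sensing and glutamine genes. With eBayes without trend these 4 counts were 0, 1, 0 and 0, and under quantile normalization the oxidative stress and the sensing and glutamine lists had 0.

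Signs changed in carriers near 0. With TMM scaling SLC7A5, SLC7A1, SLC38A1 and SLC43A1 were at 0.014, 0.012, 0.0053 and 0.013, in edgeR at 0.015, 0.015, 0.0079 and 0.042, and in DESeq2 at 0.011, 0.011, 0.0036 and 0.038. Under quantile normalization SLC7A5, SLC7A1 and SLC38A1 were at 0.051, 0.059 and 0.044. After correction for GC content and length SLC38A1 was at 0.045 and SLC3A2 at -0.0067. With 1 library left out SLC7A5 went from -0.052 to 0.035, SLC3A2 from -0.044 to 0.073, SLC7A1 from -0.017 to 0.011, SLC38A1 from -0.040 to 0.026 and SLC43A1 from -0.16 to 0.16. SLC7A11, SLC38A2, SLC1A5, SLC1A4 and SLC6A9 kept their sign under all alternatives in which they were tested, SLC6A9 not being tested at a mean of at least 100. The ratio of SLC7A5 to SLC3A2 went from -0.047 to -0.0076 and that of SLC7A11 to SLC3A2 from 0.29 to 0.45 with 1 library left out. Depth limits SLC6A9 most, with 23 reads in its lowest library.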
